A study of Mus musculus with 16 samples.

Results

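The late response of cultured adult mouse neural stem cells to a treatment meant to recombine Tlx was read from 4 of the 16 arrays of the series. These were the 2 arrays of Tlx(f/Z;CreER) cultures given 4-hydroxytamoxifen (4OHT, 4OH-TM in the labels) and the 2 arrays of Tlx(f/Z;CreER) cultures given vehicle, all 60 h after treatment. They were chosen by sample title alone, with no measured value. The study asked which genes depend on Tlx, and its other arrays held the same CreER cultures at 36 h (4OHT and vehicle, 2 arrays each) and Tlx(f/Z) cultures without Cre, treated with either agent for 36 h or 60 h (2 arrays per group). All 8 groups shared the Tlx(f/Z) genotype, vehicle and no-Cre cultures included. In this notation f is the usual sign of an allele that Cre can delete, and the labels do not explain Z. They also do not give the promoter that drives CreER, the age of the donor animals beyond adult, or the number of animals or lines behind a culture. The submitters describe the arrays as biological replicates but name no separate animals or cultures, so p-values measure only the spread between these arrays.

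TLX, the protein of the Tlx gene (Nr2e1), is an orphan nuclear receptor that acts mainly as a transcriptional repressor and recruits histone deacetylases to its target genes. In the adult brain it marks neural stem cells and is known for keeping them dividing and undifferentiated. CreER is a recombinase fused to a mutant estrogen receptor domain, which holds it outside the nucleus until 4OHT binds. Because 4OHT can also act on cells by itself, the response of cultures without Cre is given beside the CreER response. No group held CreER without the Tlx(f/Z) genotype. Loss of Tlx and activity of the 4OHT-bound CreER itself therefore cannot be told apart in this design.

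Signals are linear probe-set intensities after quantile normalization of the 16 arrays, with 1 probe set per gene, and differences are on the log2(signal + 16) scale, 4OHT minus vehicle. A gene was called changed at a limma adjusted p (Benjamini-Hochberg over 7618 genes) under 0.05. The deposited median signal was 92.2 and 112.9 on the CreER 4OHT arrays at 60 h, against 123.2 and 101.4 on the CreER vehicle arrays. Actin control probe sets at the 5' and 3' ends, a gauge of RNA integrity, had ratios (5' over 3') of 0.841 and 0.720 with 4OHT, against 0.882 and 0.862 with vehicle. A fit that adjusts for the actin ratio is among the alternatives, and otherwise the part of these differences in the results was not tested. Replicates correlated over genes at r = 0.988 with 4OHT and 0.989 with vehicle. Tlx itself was not analysed here, so the labels were not checked by the deleted gene. Of 9 neural stem cell markers with a probe set, 8 passed the filter on low signals, and their summed signal was 18013 and 18883 with 4OHT, against 18717 and 18682 with vehicle. Prom1 was the exception. Of 5 astrocyte, 6 neuronal and 4 oligodendrocyte markers with a probe set, 2, 2 and 1 passed the filter. They were S100b and Aldh1l1, Map2 and Syt1, and Sox10. Map2 was the brightest of them, at 1089 and 1369 with 4OHT, against 1471 and 1602 with vehicle. From the same lists, Gfap, Aqp4, Dcx, Tubb3, Stmn2, Snap25, Mbp and Mog lay at or under a signal of 31.2 on all 4 arrays. Brighter members that did not pass were Slc1a2 and Mag. Slc1a2 gave 72.8 and 61 with 4OHT, against 79.7 and 40.1 with vehicle, and Mag reached 33.8 on vehicle replicate 1. None of 4 endothelial, 5 fibroblast and 2 ependymal markers passed the filter, and 1 of 6 microglial markers did. Since these are bulk cultures, fewer cells of a type and less RNA per cell cannot be told apart.

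At 60 h, CreER cultures given 4OHT carried lower levels of the genes that copy and segregate DNA and higher levels of p53 targets, immediate early genes and lysosomal genes than CreER cultures given vehicle. Of 7618 genes tested, 2263 were called (29.7%), 1233 higher with 4OHT (16.2%) and 1030 lower (13.5%). Large changes were mostly rises: 68 called genes were at least 2-fold higher with 4OHT and 11 were at least 2-fold lower. The 4OHT and vehicle arrays did not overlap for 2262 of the 2263 called genes. Over all genes tested, both 4OHT arrays lay above both vehicle arrays for 32.2% and below them for 30.3%. The balance of directions depended on the scaling of the arrays: with the signals as deposited, 533 genes were called, 180 higher and 353 lower, and the median gene lay at -0.105 on the log2 scale. Without CreER vehicle replicate 2, 1413 genes were called.

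**Figure D1:**
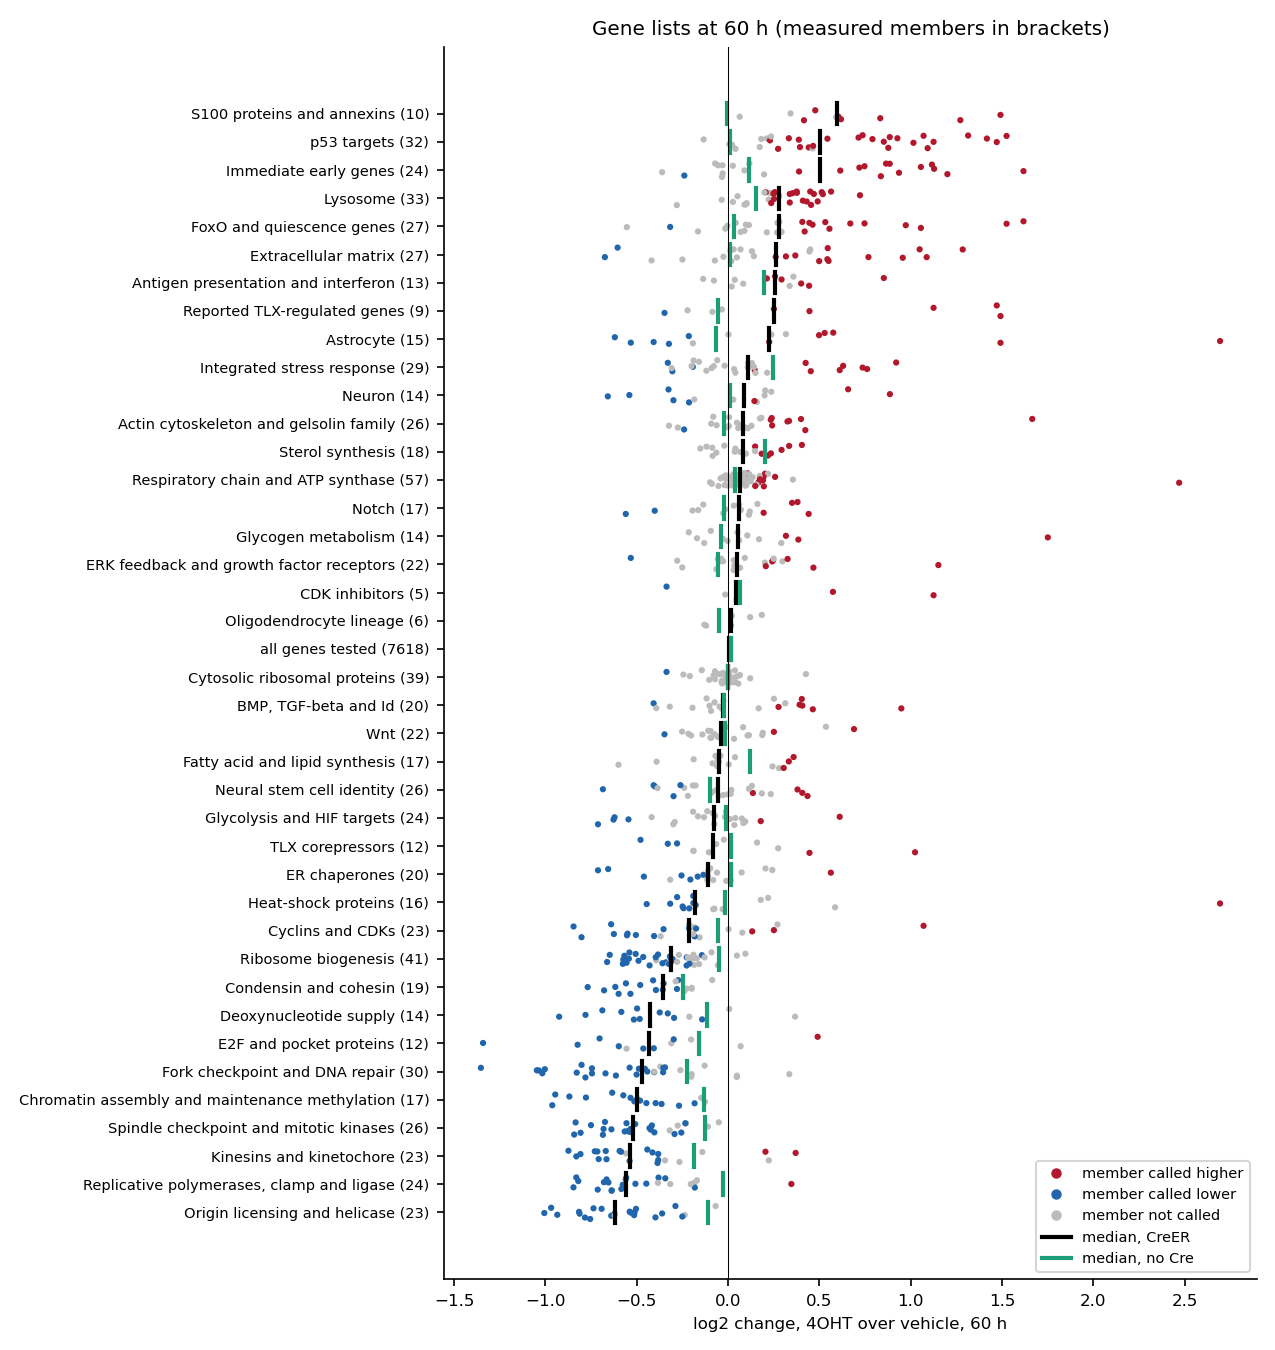
Log2 change (4OHT over vehicle, 60 h, horizontal axis) of each measured member of the gene lists in CreER cultures, 1 row per list, with the number of measured members in brackets. Red and blue points are members called higher and lower, grey points are not called, the black bar is the list's median in CreER cultures and the green bar its median in cultures without Cre. DNA replication and mitosis lists lie at the bottom, with medians between -0.62 and -0.21, and S100, p53, immediate early and lysosome lists at the top.

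DNA replication begins with licensing, in which the origin recognition complex, Cdc6 and Cdt1 load the ring of Mcm2 to Mcm7 that later unwinds DNA. Of 23 measured licensing and helicase genes, 20 fell, 0 rose and 3 were not called, with a median log2 change of -0.62 in CreER cultures, against -0.11 in cultures without Cre. All 6 ring subunits were among those that fell. Mcm5 had signals of 694 and 646 on the 4OHT arrays, against 1308 and 1281 on the vehicle arrays. The 2 arrays of each group were close together and the groups did not overlap (log2 change -0.94 ± 0.07, SE, limma adjusted p = 2.36e-07). Cdt1, the loading factor, gave 961 and 965 with 4OHT, against 1728 and 1679 with vehicle (log2 change -0.81, limma adjusted p = 1.35e-07). For Cdc6, which holds the ring during loading, the signals were 146 and 178 with 4OHT, against 346 and 317 with vehicle. That fall of 0.97 on the log2 scale stood beside a no-Cre change of -0.40, and the difference between them did not pass the threshold (limma adjusted p = 0.0539). Mcm10 (-1.01), Cdc45 (-0.78) and Gins1 (-0.62), which turn the loaded ring into an active helicase, fell too. Orc4, Orc5 and Recql4 were not called, with log2 changes of -0.07, -0.24 and -0.62.

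Several of these genes carry E2F motifs close to their start site, the elements through which E2F factors and pocket proteins switch S-phase genes. In windows of 250 bases before and 50 after the start (RefSeq, GRCm38.p6), the letters TTGGCGC or TTGCCGC or TTCGCGC or TTCCCGC stood on either strand in 11 of 18 licensing genes with a window (61.1%). The same letters stood in 15 of 22 of the 25 largest falls (68.2%) and in 6 of 21 of the 25 largest rises (28.6%). They stood in 31.4% of genes called lower, in 17.7% of genes called higher and in 21.6% of the 6268 tested genes with a window. Over all 27025 genes of the table the share was 10.9%. The 250 bases before the start of 4 genes among the largest falls are shown 5' to 3' on the gene's strand, with each match in capitals, for E2f8 (chr7:48881597-48881846, minus strand), Mcm5 (chr8:75109259-75109508, plus strand), Cdc6 (chr11:98907901-98908150, plus strand) and Fignl1 (chr11:11808963-11809212, minus strand). In Mcm5, 2 of the 3 matches overlap on opposite strands. A match is a description and not a shown binding site.
E2f8: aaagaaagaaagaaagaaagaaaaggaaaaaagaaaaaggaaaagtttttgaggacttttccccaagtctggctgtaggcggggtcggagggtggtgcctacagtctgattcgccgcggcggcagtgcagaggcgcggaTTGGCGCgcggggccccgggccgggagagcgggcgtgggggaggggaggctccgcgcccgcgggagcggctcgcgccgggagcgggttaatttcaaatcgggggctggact
Mcm5: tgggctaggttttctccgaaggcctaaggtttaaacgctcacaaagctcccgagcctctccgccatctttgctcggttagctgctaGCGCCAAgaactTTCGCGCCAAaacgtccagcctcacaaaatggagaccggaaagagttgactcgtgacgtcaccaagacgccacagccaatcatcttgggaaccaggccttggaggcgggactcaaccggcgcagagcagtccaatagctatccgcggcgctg
Cdc6: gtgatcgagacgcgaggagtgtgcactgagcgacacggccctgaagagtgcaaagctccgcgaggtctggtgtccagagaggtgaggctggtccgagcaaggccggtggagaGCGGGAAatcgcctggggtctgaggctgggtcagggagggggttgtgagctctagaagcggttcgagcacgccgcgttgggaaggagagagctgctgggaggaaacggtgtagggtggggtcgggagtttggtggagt
Fignl1: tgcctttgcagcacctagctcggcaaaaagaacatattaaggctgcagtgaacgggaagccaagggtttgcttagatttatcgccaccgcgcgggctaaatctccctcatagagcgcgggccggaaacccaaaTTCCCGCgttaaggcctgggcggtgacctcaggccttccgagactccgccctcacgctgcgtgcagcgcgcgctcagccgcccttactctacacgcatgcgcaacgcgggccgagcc

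**Figure D2:**
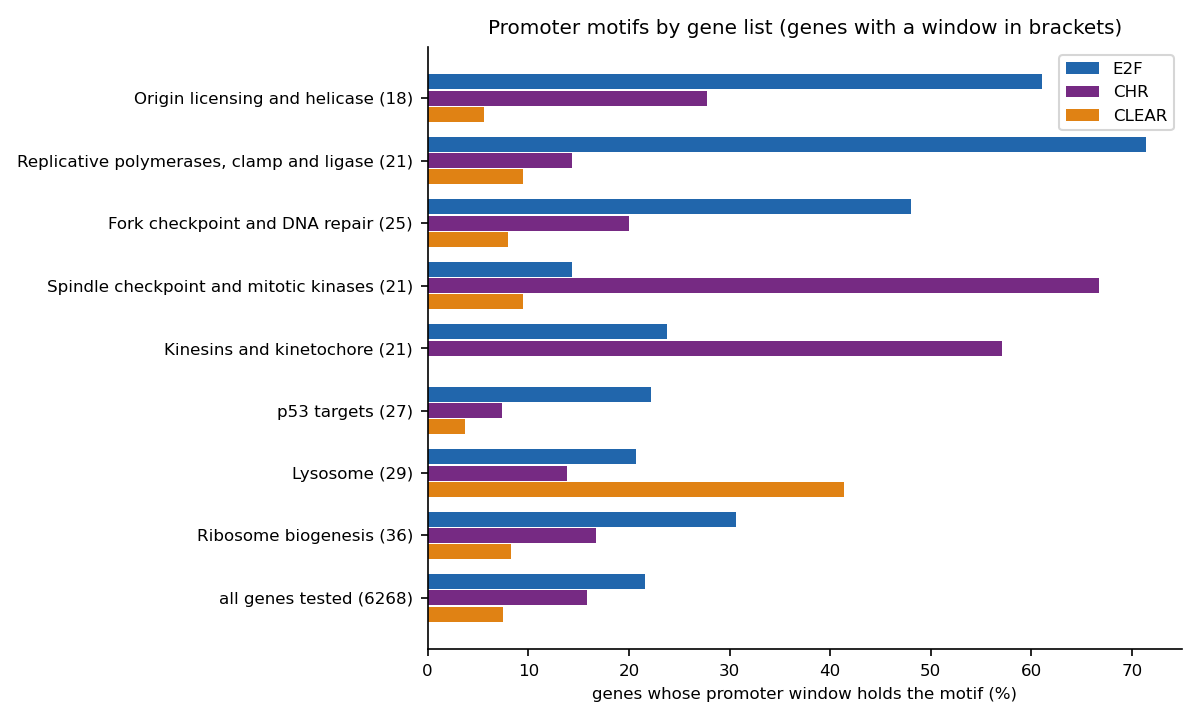
Share of genes (horizontal axis, %) whose promoter window holds an E2F, CHR or CLEAR motif, for 8 gene lists and all genes tested, with the number of genes that have a window in brackets. E2F shares reach 71.4% in the polymerase list, against 21.6% of all genes tested, CHR shares 66.7% in the spindle list, against 15.8%, and the CLEAR share 41.4% in the lysosome list, against 7.45%.

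The enzymes that copy DNA fell with the helicase. Of 24 measured genes of the replicative polymerases, primase, sliding clamp, clamp loader and ligase, 18 fell, 1 rose and 5 were not called, with a median log2 change of -0.56, against -0.03 in cultures without Cre. Pold1, the catalytic subunit of the lagging-strand polymerase, gave 392 and 423 with 4OHT, against 780.3 and 711 with vehicle (log2 change -0.85, limma adjusted p = 6.2e-06). Prim1, the primase that starts each new strand, gave 542 and 479 with 4OHT, against 909 and 915 with vehicle (-0.82, limma adjusted p = 3.92e-07). All 5 clamp loader subunits, Rfc1 to Rfc5, fell, by between 0.51 and 0.68 on the log2 scale. Pcna, the clamp itself, is among the brightest of these genes and fell less, by 0.34, with signals of 5667 and 5344 with 4OHT, against 7004 and 6969 with vehicle. The one rise was that of Pold4, a small accessory subunit (0.35), which changed by 0.31 without Cre, where it was not called.

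Supply of deoxynucleotides and packaging of new DNA followed the same direction. Of 14 measured genes for deoxynucleotide supply, 11 fell and 0 rose, with a median of -0.43, against -0.12 without Cre. Thymidine kinase, Tk1, which salvages thymidine, gave 991 and 907 with 4OHT, against 1976 and 1665 with vehicle. The 2 vehicle arrays differed from each other but both lay far above the 4OHT arrays (log2 change -0.92 ± 0.08, SE, limma adjusted p = 1.57e-06). Both subunits of ribonucleotide reductase, Rrm1 (-0.58) and Rrm2 (-0.52), fell, whereas Rrm2b, the p53-inducible subunit, was not called (0.01). With the signals as deposited, 7 of the 14 were called lower. Of 17 genes for chromatin assembly and maintenance of DNA methylation, 15 fell and 0 rose, with a median of -0.50, against -0.13 without Cre. Chaf1b, a subunit of the histone chaperone that follows the fork, gave 234 and 266 with 4OHT, against 505 and 498 with vehicle (-0.96, limma adjusted p = 3.23e-06). Uhrf1, which finds hemimethylated DNA, fell by 0.78, and Dnmt1, the methyltransferase it guides, by 0.48 on the log2 scale.

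Genes that guard and repair the fork held the deepest fall of all, and several also moved without Cre. Of 30 measured genes for fork checkpoint and repair, 21 fell, 0 rose and 9 were not called, with a median of -0.47. In cultures without Cre, 11 of the 30 fell (median -0.22), where 2.86% of all genes tested were called lower. Chek1, the kinase that responds to stalled forks, gave 71.9 and 64.6 with 4OHT, against 191 and 208 with vehicle, in CreER cultures. In cultures without Cre it gave 123 and 117 with 4OHT, against 183 and 197 with vehicle. The arrays did not overlap in either genotype, and the CreER change of -1.35 exceeded the no-Cre change of -0.59 (limma adjusted p of the difference = 0.00828). Its other probe set changed by -0.59 in CreER cultures. Brca1, a repair protein of broken DNA, gave 259 and 236 with 4OHT, against 515 and 509 with vehicle (-1.003 ± 0.08, SE, limma adjusted p = 5.12e-07). Blm, a helicase that undoes recombination intermediates, gave 133 and 132 with 4OHT, against 279 and 303 with vehicle (-1.05, limma adjusted p = 1.03e-06). Timeless (-1.02) and Tipin (-0.83), partners that steady the fork, fell together. Atr, the kinase upstream of Chek1, was not called (-0.20), nor was Nbn (-0.26).

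Regulators of the cycle moved in both directions. Of 12 measured E2F and pocket-protein genes, 7 fell, 1 rose and 4 were not called (median -0.44, against -0.16 without Cre). E2f8, an E2F that represses and is itself periodic, gave 184 and 134 with 4OHT, against 416 and 432 with vehicle (-1.34 ± 0.14, SE, limma adjusted p = 5.63e-06). The 4OHT arrays of E2f8 differed more from each other than the vehicle arrays did, and both lay under the vehicle arrays. E2f1, the activator, fell by 0.46 close to the threshold (limma adjusted p = 0.0496). Rb1, the retinoblastoma protein that holds E2F in check, was the rise in this list. It gave 391 and 354 with 4OHT, against 238 and 284 with vehicle (0.49), and the opposite sign without Cre (-0.41, limma adjusted p of the difference = 0.00176). Of 23 cyclin and CDK genes, 12 fell, 3 rose and 8 were not called, with a median of -0.21, against -0.05 without Cre. Ccne1 (-0.64), Ccne2 (-0.85), Ccna2 (-0.55), Ccnb2 (-0.50) and Cdk1 (-0.41) were among the falls. Ccne2 fell nearly as far without Cre (-0.71). Ccnd1, the growth-factor-driven G1 cyclin, gave 6767 and 6988 with 4OHT, against 5733 and 5818 with vehicle, a small rise of 0.25 (limma adjusted p = 4.11e-05). The other rises were Ccnd2 (0.13) and the p53 target Ccng1 (1.07).

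Genes of mitosis fell as well. Of 26 measured spindle checkpoint and mitotic kinase genes, 21 fell, 0 rose and 5 were not called, with a median of -0.52, against -0.13 without Cre. Ttk, the kinase that starts the spindle checkpoint, gave 119.6 and 166 with 4OHT, against 239 and 294 with vehicle (-0.84, limma adjusted p = 0.000323). Mki67, the antigen used to mark dividing cells, gave 961 and 1001 with 4OHT, against 1463 and 1722 with vehicle (-0.69, limma adjusted p = 1.27e-05). Its change without Cre was -0.42, and the difference of the responses did not pass the threshold (limma adjusted p = 0.121). Plk1, Bub3, Foxm1, Nek2 and Mad1l1 were not called, at -0.23, -0.05, -0.32, -0.28 and -0.11. Of 23 kinesin and kinetochore genes, 16 fell and 2 rose (median -0.54, against -0.19 without Cre). The CreER response was called lower than the no-Cre response for only 2 of the 23 and higher for 1. Of all genes tested, 5.82% were called lower and 5.68% higher in this way. Of 19 condensin and cohesin genes, 13 fell and 0 rose (median -0.36, against -0.245 without Cre), and 8 were called lower with the signals as deposited. The difference between the responses was called lower for 4 of the 19. Without Cre, 4 kinesin and kinetochore genes and 5 condensin and cohesin genes fell. Haspin, the kinase that marks histone H3 at centromeres, gave 52.3 and 41.5 with 4OHT, against 109.8 and 119 with vehicle (-1.06, limma adjusted p = 4.23e-05).

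The mitotic promoters carry another element, the cell cycle homology region (CHR), read by the DREAM complex and its activating counterpart in G2 and M. The letters TTTGAA or TTCGAA stood on either strand in 14 of 21 spindle genes with a window (66.7%) and in 12 of 21 kinesin and kinetochore genes (57.1%), against 15.8% of the tested genes with a window. In all genes of the table the share was 21.7%. TTCGAA reads the same on both strands, and neither form contains or is contained in the E2F letters. The same bases before the start are shown for Kif11 (chr19:37376132-37376381, plus strand), the kinesin that pushes spindle poles apart, and Top2a (chr11:99024190-99024439, minus strand), the topoisomerase that untangles chromosomes. Kif11 gave 209.9 and 213 with 4OHT, against 336 and 380.2 with vehicle (-0.72, limma adjusted p = 1.98e-05), and Top2a gave 1176 and 1155 with 4OHT, against 1679.96 and 1751 with vehicle (-0.55, limma adjusted p = 2.92e-07).
Kif11: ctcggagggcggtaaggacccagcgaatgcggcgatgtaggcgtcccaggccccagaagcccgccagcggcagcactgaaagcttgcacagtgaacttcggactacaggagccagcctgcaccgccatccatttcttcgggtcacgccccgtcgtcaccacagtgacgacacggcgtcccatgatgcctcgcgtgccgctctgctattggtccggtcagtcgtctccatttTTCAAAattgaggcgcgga
Top2a: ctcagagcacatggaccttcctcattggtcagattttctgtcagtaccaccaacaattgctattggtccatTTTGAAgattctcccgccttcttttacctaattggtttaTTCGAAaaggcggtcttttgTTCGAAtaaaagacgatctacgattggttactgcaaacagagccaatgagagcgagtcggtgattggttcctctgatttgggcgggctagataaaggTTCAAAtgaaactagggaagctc

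Growth-related genes outside the cycle fell less steeply. Of 41 measured ribosome biogenesis genes, 25 fell and 0 rose, with a median of -0.32, against -0.05 without Cre. With the signals as deposited, 13 of them were called lower. Ncl, nucleolin, gave 2710.3 and 2553 with 4OHT, against 3663 and 3821 with vehicle (-0.51, limma adjusted p = 5.12e-07). Fbl, the methyltransferase that modifies ribosomal RNA, fell by 0.38 on the log2 scale. The 39 measured ribosomal protein genes, in contrast, had a median of -0.001, with 1 called lower and 0 higher. Cytosolic and mitochondrial heat-shock proteins fell in 9 of 16 measured genes, with Cryab the single rise, and ER chaperones fell in 7 of 20, with Sel1l the single rise. Their medians were -0.18 and -0.11, and as deposited 1 and 3 of them were called lower. Hk2, the hexokinase of dividing cells, gave 445 and 458 with 4OHT, against 683 and 724 with vehicle (-0.62, limma adjusted p = 9.79e-05). Ero1a (-0.71), Slc2a3 (-0.63) and Egln3 (-0.55), all known hypoxia-inducible genes, fell as well. These 4 were the falls among 24 glycolysis and hypoxia genes, a share of 16.7%, near the 13.5% of all genes tested. Ddit4 (0.61) and Hk1 (0.18) were the 2 rises, 18 genes were not called, and the median was -0.08. The count of falls was 2 without vehicle replicate 2 or without 4OHT replicate 1, and 6 without 4OHT replicate 2.

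Not every large fall was that of a cell-cycle gene. Car3, a carbonic anhydrase, gave 77.5 and 77.6 with 4OHT, against 169 and 189 with vehicle (-1.06 ± 0.10, SE, limma adjusted p = 3.23e-06). Cultures without Cre held more of it, at 343 and 305 with 4OHT, against 285 and 306 with vehicle. Among the 25 largest falls, log2 changes ran from -1.35 to -0.90 and limma adjusted p from 1.34e-07 to 0.0397. Lrrc1 stood at the upper end, with 4OHT arrays at 31.3 and 29 and vehicle arrays at 61.7 and 137 that lay far apart. Without vehicle replicate 2 its change was -0.75 and it was no longer called (limma adjusted p = 0.324). Gm6211 and Stap2 also lost their calls when 1 array was left out, at limma adjusted p up to 0.15 and 0.237.

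**Figure D3:**
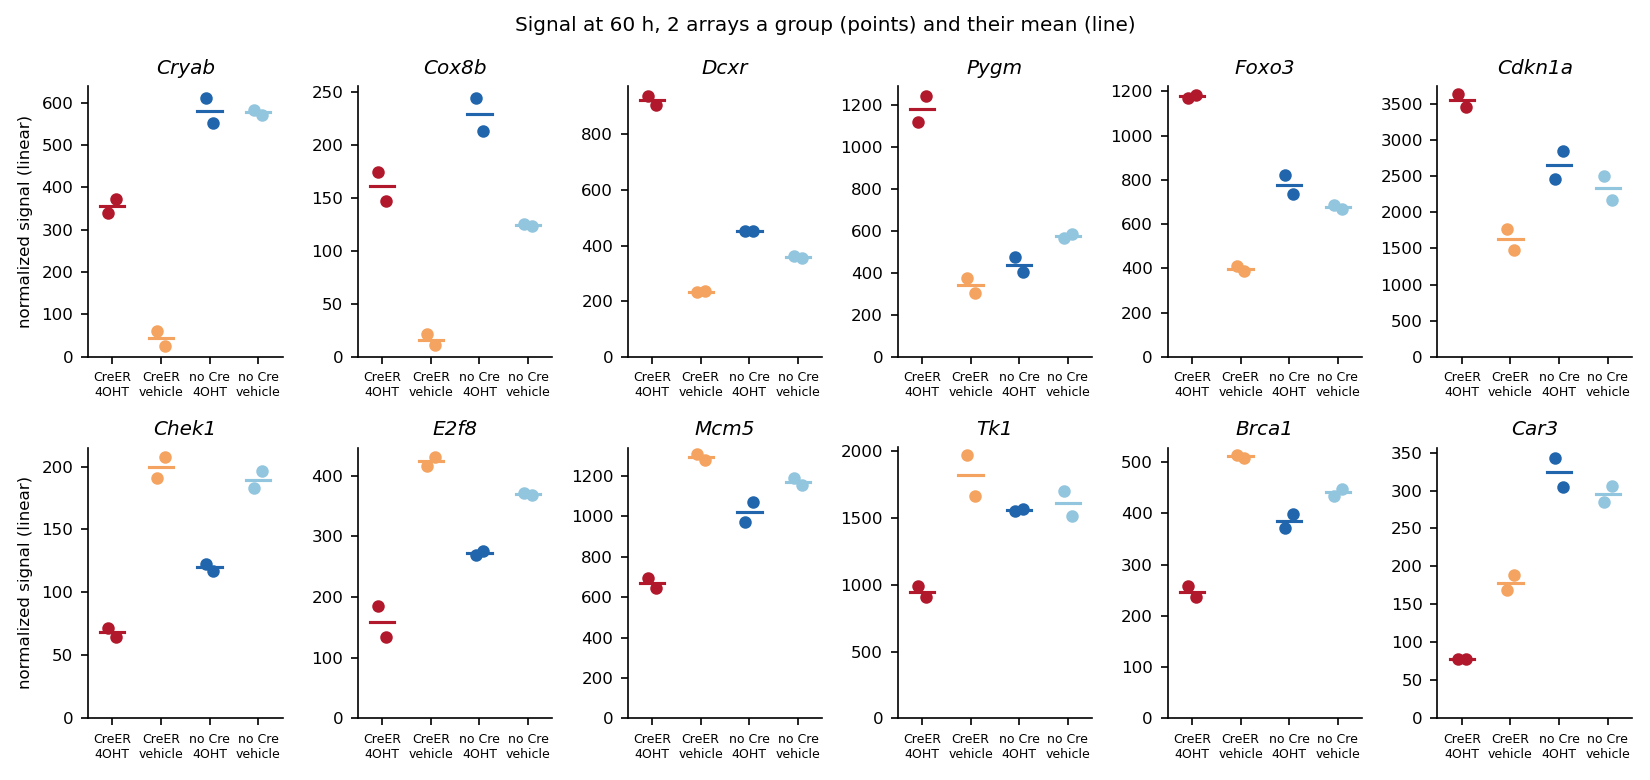
Normalized signal (vertical axis, linear) of 12 genes on the 8 arrays at 60 h, in the order CreER 4OHT, CreER vehicle, no-Cre 4OHT and no-Cre vehicle, with 1 point per array and a line at the mean of 2. In the upper row the CreER 4OHT arrays lie above the CreER vehicle arrays and in the lower row below them. For every gene of the upper row the CreER vehicle arrays are the lowest of the 4 groups, for example 61.9 and 26.2 for Cryab.

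Turning to genes that rose, targets of the tumour suppressor p53, which halts damaged or stressed cells, had the largest share of rises of the lists. Of 32 measured members of the list, 23 rose, 0 fell and 9 were not called, with a median log2 change of 0.51, against 0.01 without Cre. For 17 of them the CreER response was called higher than the no-Cre response, where 5.68% of all genes tested were. As deposited, 15 were called higher. Cdkn1a, the p21 protein that stops cyclin-dependent kinases, gave 3638 and 3461 with 4OHT, against 1764 and 1483 with vehicle. The groups did not overlap (1.13 ± 0.09, SE, limma adjusted p = 4.79e-07). Its level without Cre was 2461 and 2853 with 4OHT, against 2503 and 2164 with vehicle, all 4 arrays lying between the CreER groups. Ccng1, cyclin G1, gave 2054 and 2025 with 4OHT, against 923 and 1004 with vehicle (1.07, limma adjusted p = 4.37e-08). Mdm2, the ligase that degrades p53, gave 919 and 1123 with 4OHT, against 486 and 613 with vehicle (0.88, limma adjusted p = 3.11e-05).

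Members with different roles in the p53 response rose together. Bbc3, the death-promoting protein PUMA, gave 269 and 259.6 with 4OHT, against 99.2 and 94.1 with vehicle (1.31, limma adjusted p = 1e-05), and also moved without Cre (0.56). Trp53inp1, a p53-induced stress protein, gave 1370.3 and 1669 with 4OHT, against 521 and 549 with vehicle (1.47, limma adjusted p = 1.79e-08). Zmat3 (1.02), Phlda3 (1.09), Btg2 (0.89), Rprm (0.93) and the repair factor Ercc5 (0.79) were other rises. Apaf1, the scaffold of the apoptosome, rose by 0.39, whereas Bid (0.04), Plk2 (0.02), Sesn1 (0.21) and Xpc (0.17) were not called. Dda1, which is in the list but is no established p53 target, rose by 0.23, as it did without Cre (0.29). Of the 5 measured CDK inhibitors, Cdkn1a and Cdkn2b (0.57) rose, Cdkn2c fell (-0.34), and Cdkn1b, p27, was not called (-0.02). As deposited, or without 4OHT replicate 2, 1 of these 5 was called higher.

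Factors linked to quiescence and FoxO signalling made up a second group. Of 27 measured genes, 12 rose, 1 fell and 14 were not called, with a median of 0.28, against 0.03 without Cre, and as deposited 5 rose. Foxo3, a transcription factor that keeps neural stem cells quiescent, gave 1169.7 and 1184 with 4OHT, against 410 and 387 with vehicle. The 2 arrays of each group were nearly equal and far from the other group (1.53 ± 0.07, SE, limma adjusted p = 1.5e-09). Its other probe set changed by 0.58, and the gene stands in the p53 list too. Klf2, known from resting T cells, gave 783 and 609 with 4OHT, against 246 and 186 with vehicle (1.62, limma adjusted p = 1.07e-06), and rose without Cre by 0.79. Klf4 (1.06), Tob1 (0.97), Klf6 (0.75), Txnip (0.67) and Btg1 (0.56) rose as well. Foxo1 was the fall (-0.32, limma adjusted p = 0.0448), though its other probe sets changed by 0.20 to 0.32. Mxd4, a Myc antagonist, gave 1288 and 1311 with 4OHT, against 559.5 and 482 with vehicle (1.30, limma adjusted p = 5.95e-08). Myc itself was not called, at -0.05.

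Immediate early genes, which respond to growth factors and stress within minutes, were also raised at 60 h. Of 24 measured genes, 13 rose and 1 fell, with a median of 0.50, against 0.11 without Cre. Dusp1, the phosphatase that switches MAP kinases off, gave 1356 and 1372 with 4OHT, against 609 and 559.97 with vehicle (1.201, limma adjusted p = 1.67e-07). Fos gave 215 and 224 with 4OHT, against 113 and 101 with vehicle (0.94, limma adjusted p = 0.000338). Gadd45b (1.13), Gadd45g (1.12), Jund (0.87) and Nr4a1 (0.84) rose, whereas Egr1 (0.03), Jun (0.20) and Ier2 (-0.03) were not called. Klf2, Klf4, Klf6 and Btg2 stand in this list as well as in the lists above. Arid5a, an RNA-binding protein that steadies immune transcripts, gave 69.5 and 72.9 with 4OHT, against 9.46 and 12.2 with vehicle (1.70, limma adjusted p = 1.17e-05).

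The 2 largest rises were those of Cryab and Cox8b. Cryab, a small heat-shock protein of astrocytes and lens, gave 339.7 and 372 with 4OHT, against 61.9 and 26.2 with vehicle, which was 6.47-fold on the offset scale (log2 change 2.69 ± 0.24, SE, limma adjusted p = 1.85e-06). In cultures without Cre it gave 610.3 and 551 with 4OHT, against 582 and 572 with vehicle. All 4 of those arrays lay above the CreER 4OHT arrays, and the CreER vehicle arrays were the low ones. Cox8b, a muscle-type subunit of cytochrome oxidase, gave 175 and 147 with 4OHT, against 21.5 and 11 with vehicle (2.47, limma adjusted p = 2.34e-06). Without Cre it rose too, by 0.80, from a higher level (244 and 213 with 4OHT, against 125 and 124 with vehicle). Cox8b is a tissue-specific form, and the other called respiratory chain genes, 9 of 57 measured, rose by at most 0.26.

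Dcxr, a carbonyl reductase of sugar metabolism, gave 938 and 907 with 4OHT, against 232 and 236 with vehicle (1.91 ± 0.08, SE, limma adjusted p = 1.5e-09). Here the CreER 4OHT arrays were also above the cultures without Cre (454 and 452 with 4OHT, against 363 and 356 with vehicle). Pygm, the muscle glycogen phosphorylase, also stood above the no-Cre arrays, with signals of 1121 and 1246 with 4OHT, against 376 and 307 with vehicle (1.75, limma adjusted p = 1.42e-07). Of 14 measured glycogen genes 2 others rose, Pygb (0.39) and Phkg2 (0.32), and 0 fell. The 3 rises are a share of 21.4%, near the 16.2% of all genes tested, and the list's median was 0.06. Their count was 1 without vehicle replicate 2 or without 4OHT replicate 2, and 1 as deposited. Ptp4a3, a phosphatase of the plasma membrane, gave 3587 and 3825 with 4OHT, against 1237 and 1078 with vehicle (1.67, limma adjusted p = 1.5e-09). Agt (angiotensinogen, 1.33), Ecrg4 (1.32), Ppp1r1a (1.33), Ptpre (1.65), Dglucy (1.42), Ak1 (1.26) and Hrc (1.26) were further members of the 25 largest rises. Those ran from 1.25 to 2.69 on the log2 scale, with limma adjusted p from 1.5e-09 to 0.00655. P2ry1, a purine receptor, is the least secure of them, with vehicle arrays at 43 and 3.03. Without vehicle replicate 2 it changed by 0.75 (limma adjusted p = 0.0939) and without 4OHT replicate 2 by 1.39 (limma adjusted p = 0.0528).

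Calcium-binding, cytoskeletal and matrix genes rose in part. Of 10 measured S100 and annexin genes 7 rose and 0 fell, with a median of 0.60, against -0.003 without Cre. S100b, an astrocyte marker, gave 671 and 641 with 4OHT, against 231 and 215 with vehicle (1.49, limma adjusted p = 8.47e-08). Anxa1, annexin A1, gave 104 and 117 with 4OHT, against 26.6 and 48.3 with vehicle (1.27, limma adjusted p = 0.00034). As deposited 3 of the 7 were called, and 4 without 4OHT replicate 1. Gsn, gelsolin, which severs actin filaments, gave 651 and 683 with 4OHT, against 203 and 195 with vehicle (1.67, limma adjusted p = 2.66e-07). Of the other 25 measured actin-cytoskeleton genes 7 rose, by at most 0.42, and Vcl fell (-0.24). With Gsn these were 8 rises, of which 1 was called as deposited, and 5 genes were called without 4OHT replicate 2. Of 27 extracellular matrix genes 12 rose and 2 fell, with a median of 0.26, against 0.01 without Cre, and as deposited 5 rose. Col4a5, a basement-membrane collagen, gave 257 and 239.7 with 4OHT, against 91 and 93.8 with vehicle (1.29, limma adjusted p = 1.89e-05). Col5a2 (0.96), Timp2 (1.05, with other probe sets at -0.39 to 1.31) and Sparc (0.77) rose, and Fbln2 fell (-0.67).

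Lysosomal genes rose broadly and by small steps. Of 33 measured genes 22 rose and 0 fell, with a median of 0.28, against 0.15 without Cre, where 7 of the 33 rose. The difference between the responses was called for 4. As deposited, without the shared scaling of the arrays, only 1 of the 33 was called, although the count after median scaling was also 22. Ctsd, the aspartic protease cathepsin D, gave 4568 and 4594 with 4OHT, against 3141 and 3044 with vehicle (0.56, limma adjusted p = 1.07e-05). Ctsa, the protective protein cathepsin A, gave 1120.05 and 1201 with 4OHT, against 949 and 880.4 with vehicle (0.34, limma adjusted p = 0.00198), and changed nearly as much without Cre (0.27). Microglia are rich in these enzymes: the summed signal of 6 microglial markers was 167.5 and 200.2 with 4OHT, against 155.0 and 146.0 with vehicle, with only Csf1r past the filter, and its part in the rise was not tested. Ctsf (0.72), Lgmn (0.52), Grn (0.51) and Ctsl (0.49) were among the other rises. The E-box of the lysosomal CLEAR element, read by TFEB and TFE3, was searched as TCACGTG on both strands, a choice made after the lysosomal values were seen. It stood in 12 of 29 lysosomal genes with a window (41.4%), against 7.45% of tested genes and 7.25% of genes called higher. The 250 bases before the start are shown for Ctsd (chr7:142387828-142388077, minus strand) and Ctsa (chr2:164833523-164833772, plus strand), with matches in capitals. A palindromic core lets 1 stretch match on both strands.
Ctsd: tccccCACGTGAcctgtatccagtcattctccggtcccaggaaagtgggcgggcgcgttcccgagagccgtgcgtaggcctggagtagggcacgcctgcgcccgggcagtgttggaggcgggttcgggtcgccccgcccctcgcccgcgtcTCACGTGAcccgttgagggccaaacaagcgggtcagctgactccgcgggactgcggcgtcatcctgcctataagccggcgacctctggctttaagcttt
Ctsa: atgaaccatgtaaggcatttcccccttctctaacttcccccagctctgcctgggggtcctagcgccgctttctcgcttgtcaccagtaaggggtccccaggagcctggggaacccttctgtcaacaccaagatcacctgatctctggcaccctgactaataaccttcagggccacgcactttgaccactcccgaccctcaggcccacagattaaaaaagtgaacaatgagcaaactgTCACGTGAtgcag

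Markers of cell identity did not move as a block. Of 26 measured neural stem cell genes, 4 rose, 5 fell and 17 were not called, with a median of -0.06, against -0.10 without Cre. The shares of rises and falls were 15.4% and 19.2%, near the 16.2% and 13.5% of all genes tested. Sox2 gave 1574 and 1660 with 4OHT, against 1723 and 1708 with vehicle, and was not called (-0.09). Nes, nestin, gave 2123 and 2495 with 4OHT, against 1775 and 1623 with vehicle (0.44, limma adjusted p = 0.000267), but its other probe sets changed by -0.45 to -0.36. Fabp7, a lipid-binding protein of radial glia, fell by 0.30, much as without Cre (-0.27). As deposited 2 of the 5 falls were called. Of 15 measured astrocyte genes 6 rose (40%) and 5 fell (33.3%), with 3 rises as deposited and 4 without vehicle replicate 1 or 4OHT replicate 1. Cst3 (0.58), Clu (0.53) and Mlc1 (0.50) rose beside S100b and Cryab, whereas Slc4a4 (-0.62), Fgfr3 (-0.53) and Glul (-0.32) fell. The summed signal of 5 astrocyte markers was 969.6 and 963.9 with 4OHT, against 510.2 and 462.2 with vehicle, most of it from S100b. Gfap, the defining marker, was at 26.3 and 28.4 with 4OHT, against 31.2 and 30.3 with vehicle, and did not pass the filter. Of 14 measured neuronal genes 3 rose (21.4%) and 5 fell (35.7%). The falls numbered 2 as deposited, 2 when vehicle replicate 2 was left out and 3 when 4OHT replicate 2 was. Of the 6 oligodendrocyte genes measured 0 were called.

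Notch and Wnt signalling steer neural stem cells. Of 17 measured Notch genes 4 rose (23.5%, against 16.2% of all genes tested) and 2 fell (11.8%, against 13.5%), with Notch1 (0.38) and Numb (0.44) among the rises and Nrarp, a feedback target of Notch, the deepest fall (-0.56, limma adjusted p = 0.000123). As deposited none of the 4 rises was called. Of 22 Wnt genes 2 rose and 1 fell, shares of 9.09% and 4.55%, and 0 of the rises were called as deposited. Of 20 listed genes reported to be regulated by TLX, 9 were measured, of which 5 rose (55.6%) and 1 fell (11.1%). The rises were Cdkn1a, S100b, Trp53inp1, Hdac5 (0.45) and Ccnd1, and the fall was Wnt7a (-0.35). Sox2 (-0.09), Sirt1 (-0.22) and Bmpr1b (-0.03) were not called. This list was drawn from knowledge of earlier work and is not independent of the lists above. Like them it was chosen with earlier results of these data known, so its counts are no test of TLX regulation. Of 12 measured corepressor genes 2 rose (16.7%) and 3 fell (25%). Hdac7 rose most (1.02, limma adjusted p = 1.07e-05). Rcor2, Hdac1 and Hdac2 fell by 0.48, 0.33 and 0.28. The number of falls was 1 without vehicle replicate 1 or 2, 2 without 4OHT replicate 1, 0 without 4OHT replicate 2 and 0 as deposited.

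To ask which of these changes went beyond the response to 4OHT without Cre, the no-Cre response at 60 h was subtracted from the CreER response. The 2 responses share no arrays. The difference was called for 876 genes (11.5%), higher for 433 (5.68%) and lower for 443 (5.82%). In cultures without Cre, 4OHT itself was followed by calls for 565 genes (7.42%), 347 higher (4.56%) and 218 lower (2.86%). That count was 13 as deposited (10 higher, 3 lower), 183 with median scaling and between 93 and 209 with 1 array left out. The count of 876 was 74 with the signals as deposited, where the median gene lay at -0.139, and between 530 and 868 with 1 array left out. Of the 1233 genes that rose in CreER cultures, 389 rose more than without Cre, and of the 1030 that fell, 342 fell more. Both responses were called in the same direction for 153 rises and 109 falls and in opposite directions for 19 rises and 21 falls. All 25 of the largest rises and 18 of the 25 largest falls had a called difference from the no-Cre response in their own direction. The 7 falls that did not were Cdc6, Donson, Gm6211, Hells, Lrrc1, Stap2 and Tex9. These counts, like the 389 and 342, follow in part from choosing genes by their CreER change, which is itself part of the difference.

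**Figure D4:**
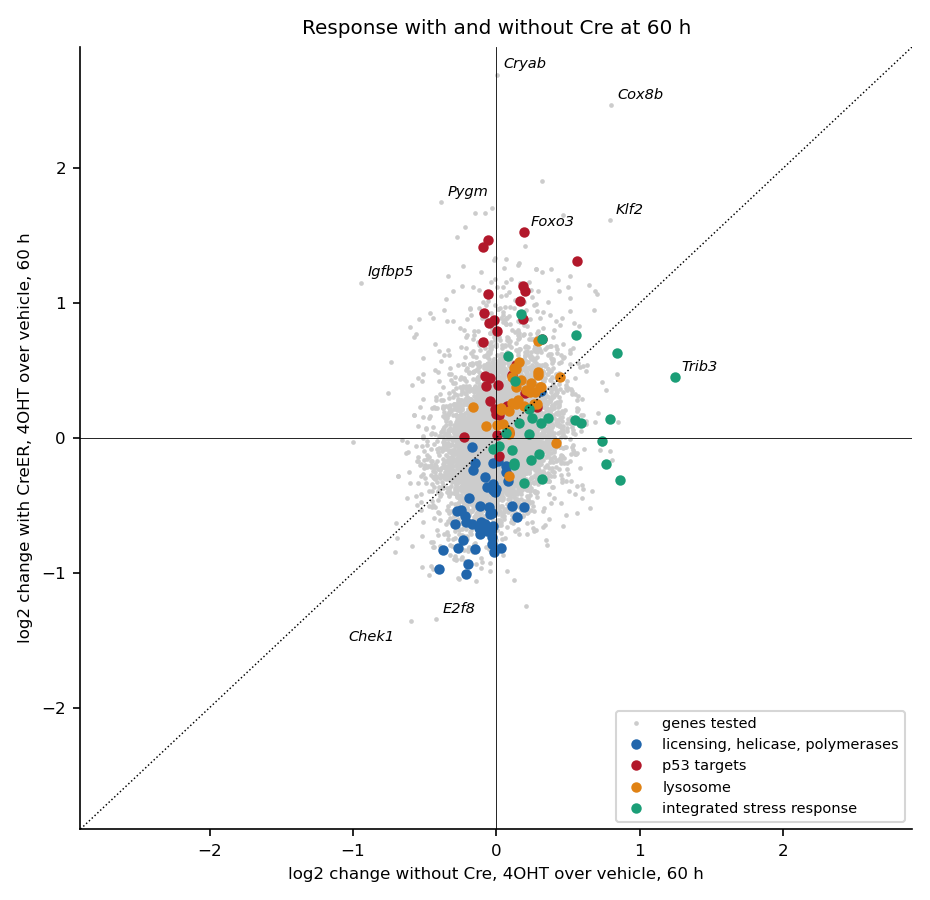
Log2 change with 4OHT over vehicle at 60 h in CreER cultures (vertical axis) against the same change in cultures without Cre (horizontal axis), 1 point per gene tested. Replication genes (blue) and p53 targets (red) spread along the vertical axis, with medians near 0 on the horizontal one, integrated stress response genes (green) spread along the horizontal axis, and lysosomal genes (orange) lie near the line. The dotted line marks equal change in both.

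Among the largest positive differences were Cryab, Pygm and Gsn, described above, and Igfbp5. Igfbp5, a binding protein of insulin-like growth factors, gave 802 and 1094 with 4OHT, against 419 and 407 with vehicle, in CreER cultures (1.15, limma adjusted p = 2.77e-05). In cultures without Cre it gave 514 and 519 with 4OHT, against 1021 and 996 with vehicle, a fall of 0.94 on the log2 scale. The difference of 2.10 came from opposite changes in the 2 genotypes, and its other probe set changed by 0.01 in CreER cultures. Among the largest negative differences, Lrr1, a subunit of a replication-linked ubiquitin ligase, gave 85.2 and 80.6 with 4OHT, against 146 and 166 with vehicle, in CreER cultures. Without Cre it gave 300.5 and 286 with 4OHT, against 229 and 223 with vehicle, so that its sign turned (-0.79 and 0.35, limma adjusted p of the difference = 0.000368). Cdca7l, a Myc-binding protein, fell by 0.98 in CreER cultures and changed by 0.08 without Cre.

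The integrated stress response behaved in the reverse way, with more rises called where Cre was absent. Of 29 measured genes 8 rose and 3 fell in CreER cultures (median 0.11), whereas 14 rose and 0 fell without Cre (median 0.25). As deposited 3 of the 29 rose in CreER cultures, and the no-Cre calls rest on a comparison whose count is 13 genes as deposited. The difference between the responses was called lower for 9 of the 29 and higher for 3. Trib3, a pseudokinase induced by ATF4, gave 163 and 167 with 4OHT, against 124 and 109 with vehicle, in CreER cultures. Without Cre it gave 180.5 and 172 with 4OHT, against 74 and 56.8 with vehicle, the larger change (0.45 and 1.25, limma adjusted p of the difference = 0.019). Asns, asparagine synthetase, fell by 0.19 in CreER cultures and rose by 0.76 without Cre (limma adjusted p of the difference = 1.54e-06). Ddit3, the transcription factor CHOP, went the other way, with 0.92 in CreER cultures and 0.17 without Cre (limma adjusted p of the difference = 0.028). Sterol synthesis genes rose with 4OHT in both genotypes: 7 of 18 measured in CreER cultures and 9 of 18 without Cre, with medians of 0.08 and 0.205. Leaving out CreER vehicle replicate 1 gave 4 such rises in CreER cultures, leaving out CreER 4OHT replicate 2 gave 3, and the signals as deposited gave 0.

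The response was next compared between times, as the CreER response at 36 h and at 60 h, which share no arrays. The difference was called for 167 genes (2.19%), with 111 higher at 60 h (1.46%) and 56 lower (0.735%). Median scaling gave 145 higher and 15 lower, and the signals as deposited gave 7 higher and 8 lower. Of the genes that rose at 60 h, 88 had a response higher than at 36 h, and of those that fell, 45 had a lower one. List medians were -0.36 at 36 h and -0.62 at 60 h for licensing, -0.57 and -0.54 for kinesins and kinetochore, 0.26 and 0.51 for p53 targets, and 0.26 and 0.28 for lysosome. Among licensing genes 5 of 23 fell further by 60 h, and of the p53 targets 6 of 32 rose further, where 0.735% and 1.46% of all genes tested did so. These counts rest on the variance taken over all 8 groups: with variance from CreER arrays alone, the difference between times was called for 13 genes. Without CreER 4OHT replicate 2 of 60 h it was called for 27.

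**Figure D5:**
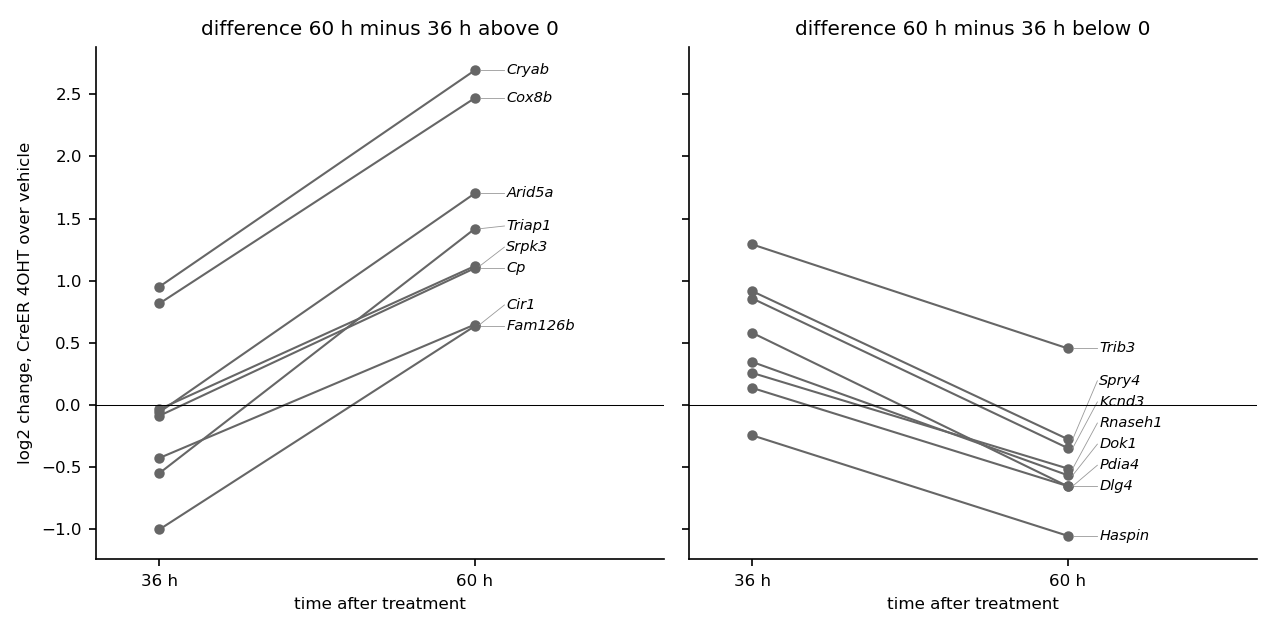
Log2 change (4OHT over vehicle, vertical axis) of CreER cultures at 36 h and 60 h after treatment for the 8 genes with the largest called difference between times in each direction, higher at 60 h on the left and lower on the right. Each line joins 1 gene's 2 responses, each from 2 arrays per group. Cryab, Cox8b and Trib3 lie above 0 at both times and Haspin below 0. All other genes shown change sign, some from close to 0 at 36 h, such as Arid5a (-0.06).

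Foxo3 had the smallest adjusted p for this difference among the genes named here. It gave 858 and 806 with 4OHT, against 604 and 569 with vehicle, at 36 h, and 1169.7 and 1184 with 4OHT, against 410 and 387 with vehicle, at 60 h. The log2 change was 0.49 at 36 h and 1.53 at 60 h (limma adjusted p of the difference = 0.000135). Cryab gave 117 and 169 with 4OHT, against 49 and 85.1 with vehicle, at 36 h, a smaller gap than the one at 60 h (difference 1.74, limma adjusted p = 0.023). Mcm5 had moved by -0.34 at 36 h and by -0.94 at 60 h (limma adjusted p of the difference = 0.00845).

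For several genes the vehicle arrays, more than the 4OHT arrays, differed between the times. Arid5a gave 56 and 83.8 with 4OHT, against 68.5 and 76.5 with vehicle, at 36 h. At 60 h its 4OHT arrays were at a like level, and its vehicle arrays were at 9.46 and 12.2. Triap1, an inhibitor of apoptosome assembly, had vehicle arrays at 399.6 and 402 at 36 h and at 162 and 118 at 60 h. Its 4OHT arrays were at 186 and 384 at 36 h and at 407 and 387 at 60 h, so the 2 early 4OHT arrays lay far apart. Among the falls, Pdia4, an ER disulfide isomerase, gave 731 and 837 with 4OHT, against 729 and 695 with vehicle, at 36 h. At 60 h it gave 1009 and 729 with 4OHT, against 1364 and 1358 with vehicle, so the vehicle level had changed most. Trib3 had a response of 1.29 at 36 h and 0.45 at 60 h (limma adjusted p of the difference = 0.0453).

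The genotypes also differed without 4OHT. On the 36 h vehicle arrays, which the 60 h comparison did not use, 21 of the 25 largest rises (84%) had both no-Cre arrays above both CreER arrays, against 34.4% of all genes tested. For the 25 largest falls, 17 (68%) had both no-Cre arrays below both CreER arrays, against 37.1% of all genes tested. Among all called genes, 57.7% of rises and 61.7% of falls showed the same order. For such genes the 60 h change in CreER cultures ran toward the 36 h vehicle level of cultures without Cre. Ecrg4, an example, gave 1859 and 1926 with 4OHT, against 803 and 696 with vehicle, in CreER cultures, and 2989 and 2706 with 4OHT, against 2793 and 2945 with vehicle, without Cre. Whether the vehicle-treated CreER cultures differed through Cre, through line or through culture cannot be told apart in this design.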

How the data were processed

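RNA was hybridised to 16 Affymetrix arrays, 2 per group. The deposited values are MAS5 signal intensities on a linear scale, per the submitters' processing notes; the version and scaling target are not given in the sources used here. Of 22690 probe sets, 64 controls, 691 with several gene symbols and 1555 with none were left out, and 20351 of the other 20380 matched a RefSeq gene. The intensities of the 16 arrays were quantile normalized and log2(signal + 16) taken. The probe set with the highest mean stood for each of 12393 genes, and 7618 genes with a mean log2 value at or above the 40th percentile (6.07, a signal of 51.4) were tested. Fold changes on this scale understate those of low genes.

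In limma 3.58.1 (R 4.3.3), 8 group means were fitted with a variance trend (8 residual and 6.83 prior degrees of freedom), and p-values were adjusted by Benjamini-Hochberg over all genes tested. The contrasts were the CreER response at 60 h, its difference from the no-Cre response and its difference from the response at 36 h. On simulated data for the first, the fit recovered 50 of 67 genes at 1.5-fold, 62 of 67 at 2-fold and 66 of 66 at 3-fold, with 10 false calls among 7618 genes. The simulated noise was normal and independent for each gene at the fitted spread, with no differences in brightness or RNA integrity between arrays. The false calls therefore do not gauge errors that such differences would bring to the real arrays. The number of arrays limits the precision.

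Genes were named as the 25 largest called changes in each direction at 60 h whose arrays did not overlap and whose other probe sets past the filter changed with the same sign, the 8 largest called differences in each direction for the other contrasts, and members of 43 gene lists. The members and lists were chosen with earlier results of these data known. Promoter windows of 300 bases came from RefSeq on GRCm38.p6. Replicates with the same number were checked for pairing: deviations from group means correlated at -0.07 in CreER and -0.08 in no-Cre cultures at 60 h, and between -0.11 and 0.29 over 28 pairs of groups, so they were not taken as paired. Array scaling, pseudocount, filter, variance model, single arrays left out, an actin covariate and a replicate block were tried as alternatives. Tlx was not analysed here.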

Additional observations from a re-analysis of the deposited data

Results flagged for a closer look

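The values given here are differences between 2 responses on the log2(signal + 16) scale, each called by limma over all genes tested. They are given because the CreER response at 60 h differed from that of cultures without Cre or from that at 36 h. They are the 8 largest called differences in each direction, so their size follows from that choice. The 16 differences from 36 h were fragile: all 16 lost their call with variance from CreER arrays alone, and 15 with the actin ratio as covariate. Of the 16 differences from cultures without Cre, 6 lost their call with that covariate and 6 without CreER vehicle replicate 2. No explanation was weighed.

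The CreER response exceeded the no-Cre response at 60 h by 2.69 for Cryab, 2.14 for Pygm, 2.10 for Igfbp5, 1.82 for Gsn, 1.78 for P2ry1, 1.77 for S100b, 1.75 for Ptp4a3 and 1.73 for Arid5a. It was below the no-Cre response with differences of -1.18 for Car3, -1.17 for Acaa1a, -1.15 for Lrr1, -1.12 for Zdhhc14, -1.12 for Bcl2l11, -1.10 for Gas2, -1.06 for Cdca7l and -1.06 for Hdac11. Bcl2l11, the death-promoting protein BIM, gave 269 and 247 with 4OHT, against 366 and 407 with vehicle, in CreER cultures, and 300.2 and 289 with 4OHT, against 207 and 181 with vehicle, without Cre. Its other probe sets changed by 0.00 to 0.25 in CreER cultures. Those of Zdhhc14 changed by 0.05 to 0.37, and that of Acaa1a, a peroxisomal thiolase, by 0.02. Hdac11, a histone deacetylase, gave 144 and 145 with 4OHT, against 185 and 269 with vehicle, in CreER cultures, and 182 and 174 with 4OHT, against 149 and 100.5 with vehicle, without Cre.

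The CreER response at 60 h exceeded that at 36 h by 1.97 for Triap1, 1.76 for Arid5a, 1.74 for Cryab, 1.66 for Cox8b, 1.64 for Fam126b, 1.19 for Cp, 1.15 for Srpk3 and 1.07 for Cir1. It was below that at 36 h with differences of -1.24 for Dlg4, -1.21 for Kcnd3, -1.19 for Spry4, -0.91 for Dok1, -0.84 for Trib3, -0.81 for Haspin, -0.79 for Pdia4 and -0.77 for Rnaseh1. Cp, ceruloplasmin, gave 211 and 219.97 with 4OHT, against 198 and 267 with vehicle, at 36 h and 755 and 886 with 4OHT, against 314 and 443 with vehicle, at 60 h. Spry4, an inhibitor of growth factor signalling, gave 1033 and 834 with 4OHT, against 550.3 and 428 with vehicle, at 36 h and 789 and 505 with 4OHT, against 819.7 and 722 with vehicle, at 60 h. Its other probe set changed by -0.74 at 60 h. Dlg4, a scaffold protein of synapses, gave 372 and 311 with 4OHT, against 212 and 234 with vehicle, at 36 h and 378 and 202 with 4OHT, against 418 and 477 with vehicle, at 60 h.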

How the results depend on the processing

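With 2 arrays a group, counts of called genes depended on the settings. The change was recomputed under the alternatives for 247 genes of the 60 h CreER response and 16 genes of each difference of responses. With the filter at the 60th percentile, fewer were tested: 206 of the 247, and 9 and 6 for the differences from no Cre and from 36 h. None of these reversed a called direction. They were chosen for large changes or small p-values, and several settings leave the fitted change as it is, so other genes are not covered. The balance of the 60 h calls turned from more rises (1233 and 1030 falls) to more falls (180 rises and 353 falls) as deposited. The 60 h CreER count of 2263 was 533 with signals as deposited, 396 when tested against a 1.2-fold change, and 1413 to 1885 with 1 array left out, the lowest without CreER vehicle replicate 2. Its difference from the no-Cre response, 876 genes, was 74 as deposited, 502 with median scaling, 124 against 1.2-fold, 466 with the actin ratio as covariate, and 530 to 868 with 1 array left out. Counts there were 579 without CreER 4OHT replicate 2, 575 and 530 without no-Cre vehicle replicate 1 and 2, and 562 and 543 without no-Cre 4OHT replicate 1 and 2. The difference from 36 h, 167 genes, was 15 as deposited, 72 without the filter, 13 with variance from CreER arrays or from the arrays compared, 4 against 1.2-fold, 34 with the actin ratio, and 27 to 242 with 1 array left out. It was 27 without CreER 4OHT replicate 2 of 60 h, 102 and 66 without vehicle replicate 1 and 2 of 60 h, 110 and 55 without 4OHT replicate 1 and 2 of 36 h, and 55 and 85 without vehicle replicate 1 and 2 of 36 h. The no-Cre count, 565, was 13 as deposited, 183 with median scaling, 335 without the filter, 298 without the variance trend, 5 against 1.2-fold, and 93 to 209 with 1 array left out, namely 209 and 102 without vehicle replicate 1 and 2 and 93 and 152 without 4OHT replicate 1 and 2. Cause was not tested. With a replicate block, although numbers did not pair the arrays, the counts were 2272, 883, 146 and 567 for these 4 comparisons. Of the 25 largest rises and 25 largest falls, 0 to 3 lost their call under each setting, among them Gm6211, Lrrc1, P2ry1 and Stap2. Only 32 of these 50 were tested with the filter at the 60th percentile. Signal over background limits genes under a signal of about 51.4, and those whose mean over the 16 arrays lay under it were not tested. Tested genes can still lie under it in single groups. Arid5a, for example, gave 9.46 and 12.2 on the CreER vehicle arrays of 60 h.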

Other observations

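Other gene groups held called genes at 60 h in CreER cultures, where 16.2% of all genes tested rose and 13.5% fell. Of 13 measured genes of antigen presentation and interferon signalling, 6 rose (46.2%) and 0 fell, with a median of 0.26, against 0.20 in cultures without Cre. Tap1, the peptide transporter that loads class I molecules, gave 127 and 97 with 4OHT, against 67.2 and 43.6 with vehicle (0.85, limma adjusted p = 0.00925). As deposited, 0 of the 6 were called. Of 20 measured BMP, TGF-beta and Id genes, 6 rose (30%) and 1 fell (5%). The rises numbered 1 as deposited, 3 without vehicle replicate 1, 4 without vehicle replicate 2 and 2 without 4OHT replicate 2. Tgfb3, a TGF-beta ligand, gave 203 and 232 with 4OHT, against 104 and 106 with vehicle (0.95, limma adjusted p = 0.0226). Id2 rose (0.41) and Id3 fell (-0.41), although both encode inhibitors of neurogenic transcription factors. Among 22 measured genes of growth factor receptors and ERK feedback, Egfr (-0.06), Fgfr1 (0.03) and Dusp6 (0.03) were not called, 6 genes rose (27.3%) and Fgfr3 fell (-0.53). The rises numbered 1 as deposited and 3 without vehicle replicate 2 or 4OHT replicate 2.

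Neuronal genes went in both directions. Syt1, the calcium sensor of synaptic vesicles, gave 85.2 and 93.6 with 4OHT, against 40.3 and 41.6 with vehicle (0.89, limma adjusted p = 0.000883). Mapt, tau, rose by 0.66, whereas Sox11 fell by 0.54 and Map2 by 0.33 on the log2 scale. Of the mitochondrial and fatty acid lists, 10 of 57 and 3 of 17 measured genes rose and 0 fell, shares of 17.5% and 17.6% close to that of all genes tested, with medians of 0.07 and -0.05. As deposited these counts were 1 and 0, and that of the mitochondrial list was 6 without vehicle replicate 2.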
